A study of Homo sapiens with 8 samples.

Results

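The PRDM family was followed through 8 of its genes in RNA sequencing of RPMI-8402, an established line of human T-cell acute lymphoblastic leukaemia. The members are PRDM16, PRDM1, PRDM2, PRDM4, PRDM10, PRDM11, PRDM15 and MECOM. They were chosen by gene symbol, and from earlier results of the same clones, in which PRDM16 and PRDM1 stood out. For that reason their values are given as a description, with a standard error and no p-value, and counts of those that passed the test over all genes are given only to describe them. All 8 were among the 14243 genes that passed the filter on low counts, out of 61228 rows in the count table.

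The study set 4 wild-type clones (WT10, WT13, WT28 and WT30) beside 4 clones in which the transcription factor gene NKX2-1 was edited (C12, C15, S04 and S36). Each line is 1 clone of RPMI-8402, and all 8 were grown in the same serum-containing medium without any treatment. The labels give neither the kind of edit nor the meaning of the letters C and S, and the groups of C-named and S-named clones used below rest on those letters alone. The series asks what NKX2-1 loss does to transcription in these leukaemia cells. No culture or sequencing dates were given, so the spread between clones may be partly technical.

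PRDM proteins carry a PR domain, which is related to the SET domain of histone methyltransferases, followed in most members by zinc fingers that bind DNA. Some methylate histones themselves, and many act by bringing in corepressors such as CtBP, histone deacetylases and the methyltransferases of H3K9. In blood, PRDM16 and MECOM maintain haematopoietic stem cells, and both are known from chromosomal rearrangements in leukaemia, among them fusions with RUNX1. PRDM1, also called BLIMP-1, drives the terminal differentiation of plasma cells and of effector T cells, and represses genes of earlier stages.

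Sequences upstream of start sites are shown for the divergent transcript of PRDM16, which is measured below, and for a start site within PRDM1 and one within MECOM, chosen because they hold the letters of NKX2 or RUNX motifs. The counts below are per gene and do not separate start sites. They come from RefSeq (GRCh38.p14), where 7 of the 8 members matched an entry, and each run is the 250 bases before the start, on the strand of the gene. PRDM16-DT lies at chr1:3067726-3067975 (minus strand), PRDM1 at chr6:106098691-106098940 (plus strand) and MECOM at chr3:169147472-169147721 (minus strand). GENCODE, used for positions below, places PRDM16-DT at chr1:3059615-3068437, with its start at 3068437. The RefSeq window of PRDM16-DT therefore lies inside the GENCODE gene, not upstream of its GENCODE start. Capitals mark letters of the RUNX core TGTGGT or the NKX2 core CAAGTG on either strand.
PRDM16-DT: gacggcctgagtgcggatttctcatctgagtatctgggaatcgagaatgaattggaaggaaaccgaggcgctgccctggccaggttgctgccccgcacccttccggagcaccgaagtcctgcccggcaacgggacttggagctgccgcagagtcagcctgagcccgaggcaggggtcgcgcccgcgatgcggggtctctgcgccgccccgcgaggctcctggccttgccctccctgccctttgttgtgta
PRDM1: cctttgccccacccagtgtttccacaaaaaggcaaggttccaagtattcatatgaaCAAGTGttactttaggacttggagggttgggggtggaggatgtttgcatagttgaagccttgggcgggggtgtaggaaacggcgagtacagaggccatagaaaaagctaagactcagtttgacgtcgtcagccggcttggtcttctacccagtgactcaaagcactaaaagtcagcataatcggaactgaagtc
MECOM: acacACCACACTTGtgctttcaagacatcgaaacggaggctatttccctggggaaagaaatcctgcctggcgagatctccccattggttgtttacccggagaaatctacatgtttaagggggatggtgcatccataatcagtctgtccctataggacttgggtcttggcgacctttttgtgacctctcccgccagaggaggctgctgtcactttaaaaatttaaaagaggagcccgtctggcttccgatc
The PRDM1 window holds the NKX2 core from position 57, counted from 1 at its 5′ end. The MECOM window holds the RUNX core from position 5 and the NKX2 core from position 9, both on the opposite strand and overlapping in the run of capitals. PRDM16-DT has neither, and neither core is in the window of the other start of PRDM1 or of the other 2 starts of MECOM. A start of PRDM10 and a start of PRDM15, not shown, also held the RUNX core, without the NKX2 core. The windows of PRDM2, PRDM4 and PRDM11 held neither. Of 35116 windows of 300 bases (the 250 shown plus 50 after the start), 13.1% held the RUNX core and 11.5% the NKX2 core. The PRDM16-DT window had a GC content of 65.3% and 25 CpG dinucleotides, beside medians of 58.7% and 14 over all windows. These matches are descriptions of letters, and binding was not measured.

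NKX2-1 itself did not separate the groups. Levels are CPM, each gene's share of a library's reads scaled by TMM to a common library size. NKX2-1 had 71.9, 11.3, 83.4 and 33.3 CPM in C12, C15, S04 and S36, and 56.3, 63.1, 53.5 and 54.2 CPM in WT10, WT13, WT28 and WT30. The fitted log2 difference was −0.15 (SE 0.42, edgeR adjusted p = 0.905), and 2 of the 4 edited clones lay above all wild-type clones. Counts per gene do not show an edit within the gene, so the groups below follow the labels, and "knockout" means labelled as knockout. Libraries held from 12344549 to 25423215 counts, except C15 with 2730285, where 3 counts amount to 1.21 CPM.
T-cell markers had a summed level of 1970 to 2610 CPM per clone over 13 genes. Those of B and plasma cells summed to 7.59 to 17.1 CPM, those of myeloid cells to 0.576 to 3.67 CPM and those of erythroid and megakaryocytic cells to 0.301 to 0.806 CPM, with MS4A1, LYZ and S100A8 at 0 in every clone.

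PRDM16, a zinc finger regulator of stem cells and of brown fat, was lower in every knockout clone than in any wild-type clone. The gene spans chr1:3069168-3438621 on the plus strand (hg38). It reached 28.9 CPM in WT10, 57.1 in WT13, 42.4 in WT28 and 30.5 in WT30. The C-named clones C12 and C15 had 8.90 and 7.25 CPM, and the S-named clones S04 and S36 had 0.422 and 0.0762 CPM. The groups did not overlap, and the S-named pair lay below the C-named pair. The means were 39.7 ± 13.0 CPM (SD, n = 4) in wild type and 4.16 ± 4.57 CPM (SD, n = 4) in knockout. On the log2 scale the fitted difference was −3.36 (SE 0.85). Fewer cells with PRDM16 RNA and less PRDM16 RNA per cell cannot be told apart in these bulk libraries.

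The knockout clones also differed among themselves. Behind the S-named values stood 7 counts in S04 and 1 in S36, behind the C-named values 231 in C12 and 18 in C15, and behind the wild-type values 544 to 1090. Taken over summed counts, wild type exceeded the C-named clones 4.50-fold (95% exact interval 3.96 to 5.14) and the S-named clones 147-fold (74.3 to 340). The C-named clones exceeded the S-named ones 32.5-fold (16.3 to 76.2), with a fitted log2 difference of 4.93 (SE 0.58). These intervals cover counting error only. C15, the shallowest library, had an interval of 4.30 to 11.5 CPM that takes in the value of C12, so the C-named clones were not distinguishable at this depth. The SD of log2 CPM among the 4 knockout clones was 2.77 for PRDM16, larger than in 99.7% of tested genes, whose median was 0.47. Among wild-type clones it was 0.46, with a median of 0.18 over all tested genes. PRDM16 was chosen with the gap between C-named and S-named clones known, so its rank in knockout is no separate result. Since 1 pair carried most of the difference, the log2 difference was −2.25 with only the C-named and −7.20 with only the S-named knockout clones.

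**Figure D1:**
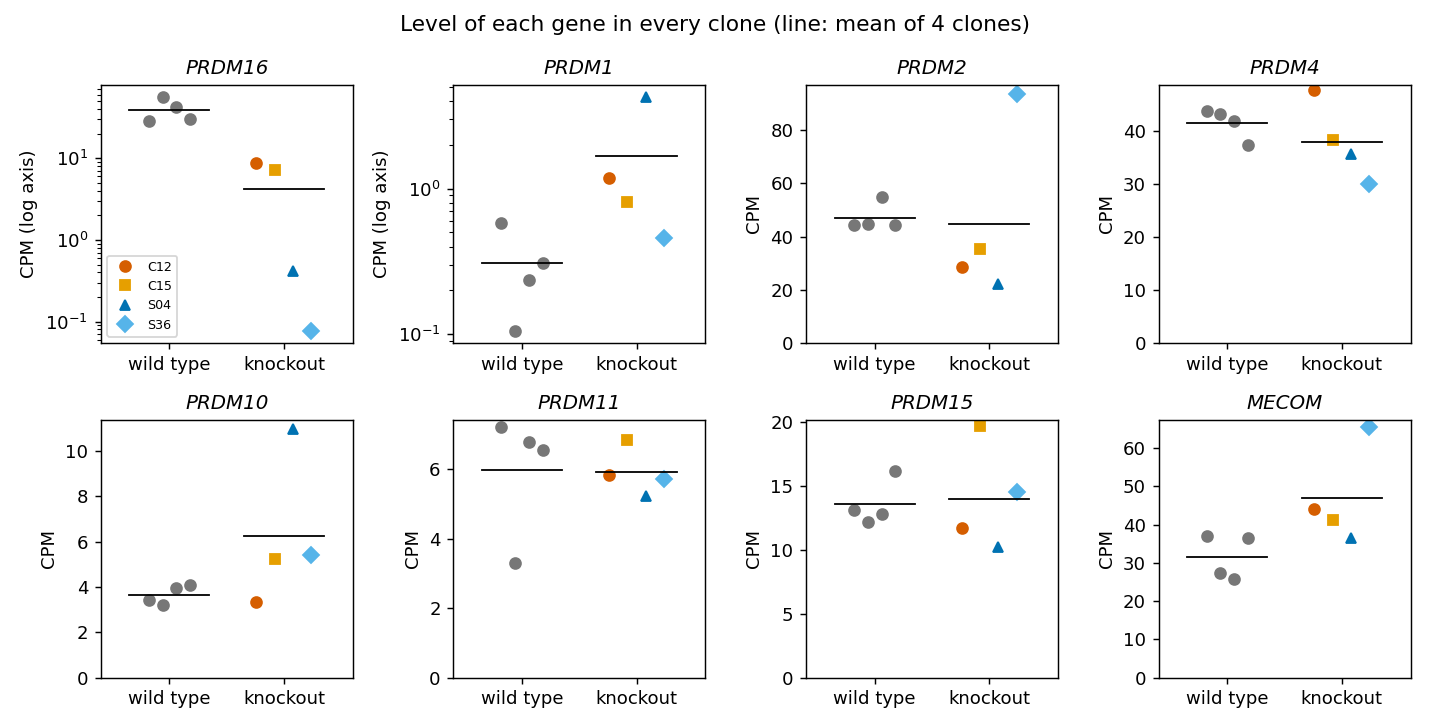
CPM of each of the 8 genes in the 4 wild-type clones (grey) and the 4 knockout clones (C12, C15, S04, S36), with a line at the mean of each group and log axes for PRDM16 and PRDM1. PRDM16 is the gene whose groups do not overlap, and its S-named clones, at 0.422 and 0.0762 CPM, lie far below the C-named ones.

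PRDM16-DT, the long noncoding transcript that starts 731 bases upstream of PRDM16 on the other strand (GENCODE), was also lower in the knockout clones. Its levels were 2.92, 5.34, 2.26 and 1.20 CPM in WT10, WT13, WT28 and WT30. C12 had 1.00 CPM and S04 had 0.0602 CPM from 1 count, while C15 and S36 had 0 counts. The groups did not overlap, but the 3 counts that a count of 0 allows would be 1.21 CPM in C15, about the value of WT30, so its absence there was not detectable. The difference did not pass the test (log2 −2.90, SE 0.84, edgeR adjusted p = 0.16). It passed in 4 of 14 alternatives: without the filter on low counts, in DESeq2, with the S-named knockout clones alone (−6.20) and without C12 (−6.26). Of the 2 knockout pairs, C12 alone carried the C-named side: the difference of C-named from S-named clones was 4.30 (SE 1.42, edgeR adjusted p = 0.176) and turned to −2.42 without C12.

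The tested protein-coding genes around PRDM16 did not share its lower level in every knockout clone. None of the 10 tested protein-coding genes within 1 Mb passed the test, and all 10 had overlapping groups. The largest log2 difference of knockout from wild type was −0.56, for DFFB, the DNA fragmentation nuclease (SE 0.39, edgeR adjusted p = 0.536). SKI, a repressor of SMAD signalling that lies upstream of PRDM16, had 38.7 to 56.4 CPM in knockout and 48.0 to 61.1 CPM in wild type. MEGF6, the nearest downstream of the 10, stood at 0.0762 CPM in S36, where PRDM16 is lowest, and at 5.06 to 12.5 CPM in the other 7 clones. C1orf174 was low in C15 and S36, at 2.82 and 7.32 CPM, and reached 16 to 32.0 CPM in the other 6. WRAP73 (3.22 and 8.08 CPM) and DFFB (3.63 and 8.54 CPM) were also low in C15 and S36. Wild-type clones had 15.5 to 21.6 CPM of WRAP73 and 15.4 to 23.2 CPM of DFFB. In C12 and S04, WRAP73 had 22.3 and 36.4 CPM and DFFB had 19.4 and 22.0 CPM. Any link of these values to PRDM16 was not tested. None of FAAP20, RER1, TPRG1L, WRAP73 and LRRC47 was below its wild-type range in both S-named clones. Over the 56 tested genes within 5 Mb, C12 and C15 had median log2 differences from wild type of −0.02 and 0.20, and S04 and S36 of 0.08 and 0.04.

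**Figure D2:**
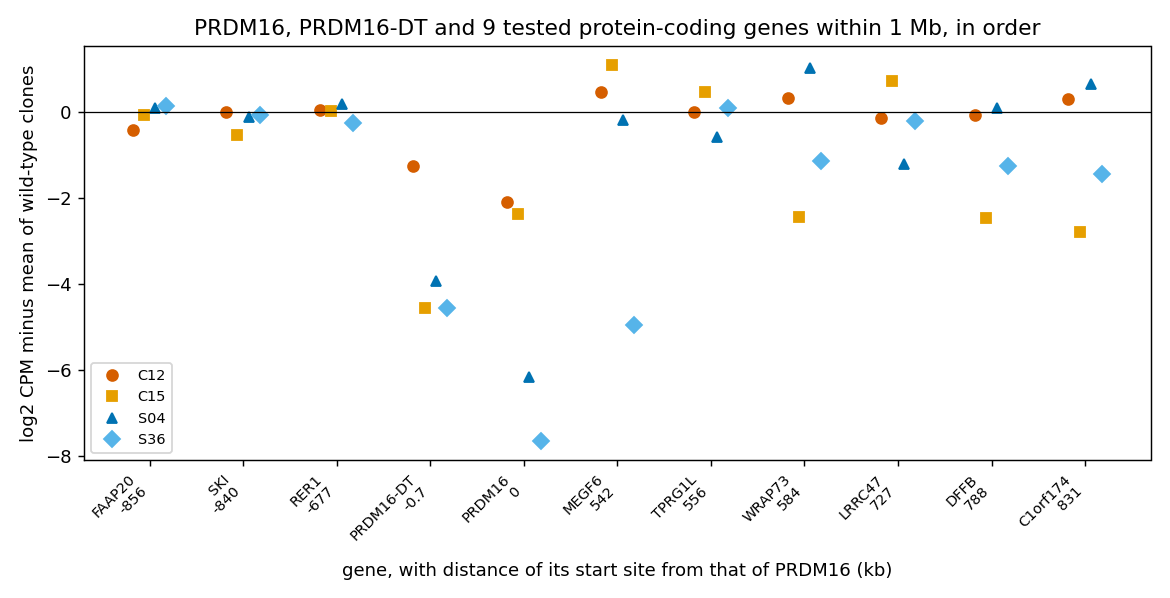
Log2 CPM of each knockout clone minus the mean of the wild-type clones, for PRDM16, PRDM16-DT and 9 tested protein-coding genes within 1 Mb, in order of start site (distance from that of PRDM16 in kb under each name). PRDM16 is at −2.09, −2.38, −6.16 and −7.65 in C12, C15, S04 and S36, and MEGF6 is low in S36 alone.

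MECOM, the closest relative of PRDM16, was on average higher in the knockout clones. It encodes EVI1 and a longer form with the PR domain, and spans chr3:169083499-169663618 on the minus strand. MECOM had 44.0, 41.1, 36.6 and 65.4 CPM in C12, C15, S04 and S36, beside 37.0, 27.3, 25.7 and 36.4 in WT10, WT13, WT28 and WT30. S36 was highest and S04 lay just inside the wild-type range, so the groups overlapped. The means were 46.8 ± 12.8 CPM in knockout and 31.6 ± 5.91 CPM in wild type (SD, n = 4 each), with a log2 difference of 0.57 (SE 0.21). The C-named clones differed from the S-named ones by −0.26 (SE 0.29), a difference within its error.

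Genes around MECOM had medians above wild type in 3 of the 4 knockout clones. Over the 16 tested genes within 5 Mb, C12, S04 and S36 had median log2 differences from wild type of 0.27, 0.31 and 0.36. C15 had −0.38, and no wild-type clone was further than 0.05 from 0. The wild-type clones make up the mean they are set against, which draws them toward 0. Knockout clones also varied more over all tested genes, with a median SD of log2 CPM of 0.47 beside 0.18 in wild type. These medians therefore do not show whether the region is unusual. MECOM itself differed from the wild-type mean by 0.49 in C12, 0.23 in S04 and 1.07 in S36, and by 0.40 in C15, where the genes around it were lower. The part of this regional difference in the MECOM values was not tested. MYNN, a zinc finger gene next to MECOM, had non-overlapping groups with a log2 difference of 0.31 (SE 0.17, edgeR adjusted p = 0.411), and GOLIM4, a Golgi protein, had 0.40 (SE 0.20, edgeR adjusted p = 0.353). MECOM-AS1, an antisense transcript inside MECOM that shares no exonic bases with it, stood at 13.6 CPM in S36 and between 1.65 and 3.97 CPM in the other 7 clones. Its log2 difference was 0.98 (SE 0.49, edgeR adjusted p = 0.364), and 0.19 without S36. Whether the counting used strand was not given. Exons of MECOM and MECOM-AS1 lie apart in GENCODE, but reads from MECOM introns over MECOM-AS1 exons cannot be told from those of MECOM-AS1.

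PRDM1, the repressor that ends B-cell and effector T-cell programmes, was higher in 3 of the 4 knockout clones than in any wild-type clone, at low levels throughout. Its span is chr6:106086320-106109939 on the plus strand. It measured 0.584 CPM in WT10, 0.105 in WT13, 0.236 in WT28 and 0.310 in WT30, from 2 to 11 counts. C12 and C15 measured 1.19 and 0.806 CPM, and S04 and S36 measured 4.28 and 0.457 CPM. S36 lay within the wild-type range, and S04 stood above the rest. The means were 1.68 ± 1.75 CPM in knockout and 0.309 ± 0.202 CPM in wild type (SD, n = 4 each), with a log2 difference of 2.53 (SE 0.72).

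The precision of the PRDM1 values differed by clone. S04, with 71 counts, exceeded pooled wild type 14.0-fold (95% exact interval 8.75 to 23.0) and C12, with 31 counts, 3.90-fold (2.23 to 6.89). C15 rested on 2 counts, with a ratio of 2.63 (0.302 to 10.6), and S36 on 6 counts, with a ratio of 1.49 (0.501 to 3.73). Neither C15 nor S36 was distinguishable from pooled wild type at its depth. These intervals cover counting error only and leave out the spread between wild-type clones. Taken per clone, the interval of C12 (0.811 to 1.7 CPM) overlapped that of WT10 (0.292 to 1.05 CPM). The difference of the C-named from the S-named clones was −1.13 (SE 0.94), and turned to 1.25 without S04. The log2 difference of knockout from wild type was 1.45 without S04. S04 also had the highest summed level of the 8 myeloid markers, 3.67 CPM, and the lowest of the 8 B and plasma cell markers, 7.59 CPM, and the part of these in its PRDM1 value was not tested. SDC1, a plasma cell marker, was at most 1.07 CPM in any clone and JCHAIN at most 0.0762 CPM.

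Next to PRDM1, none of 6 tested protein-coding genes within 1 Mb passed the test. ATG5, an autophagy gene that overlaps PRDM1 on the other strand without sharing exonic bases, was highest in S04, at 24.3 CPM, and reached 9.58 to 13.7 CPM elsewhere (log2 difference 0.58, SE 0.25, edgeR adjusted p = 0.308). CRYBG1 was 1.98 to 4.35 CPM in knockout and 0.531 to 2.40 CPM in wild type, with a log2 difference of 1.26 (SE 0.49, edgeR adjusted p = 0.254). RTN4IP1 went the other way by −0.86 (SE 0.37, edgeR adjusted p = 0.307). QRSL1 and MTRES1 differed by 0.00 and −0.35. PREP, a peptidase gene, had groups that did not overlap, with 10.8 to 17.3 CPM in knockout and 17.4 to 18.8 CPM in wild type (log2 difference −0.39, SE 0.18, edgeR adjusted p = 0.329).

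PRDM2, known as RIZ, a retinoblastoma-binding methyltransferase of H3K9, was steady in wild type and scattered in knockout. It spans chr1:13700198-13825079 on the plus strand, on the same chromosome as PRDM16. Its levels were 44.2, 44.8, 55 and 44.5 CPM in WT10, WT13, WT28 and WT30, and 28.5, 35.5, 22.0 and 93.5 CPM in C12, C15, S04 and S36. C12, C15 and S04 lay below all wild-type clones and S36 above all of them. Because these offset each other, the log2 difference was −0.06 (SE 0.38), and the direction turned in 5 of 14 alternative analyses. The S-named clones, at the lowest and the highest value of the 8, had no common direction.

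PRDM10, an activator whose targets include the tumour suppressor gene FLCN, was higher in 3 of the 4 knockout clones than in any wild-type clone. It spans chr11:129899706-130002835 on the minus strand. C15, S04 and S36 had 5.24, 11 and 5.41 CPM, C12 had 3.35 CPM, and WT10, WT13, WT28 and WT30 had 3.45, 3.20, 3.96 and 4.08 CPM. S04 was highest, as it was for PRDM1, and C12 sat inside the wild-type range. The log2 difference was 0.78 (SE 0.35), but 0.08 with only the C-named knockout clones.

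PRDM4, PRDM11 and PRDM15 had mean differences smaller than their errors. PRDM4, which works with the arginine methyltransferase PRMT5, had 29.9 to 47.7 CPM in knockout and 37.2 to 43.6 CPM in wild type (log2 difference −0.13, SE 0.16; chr12:107732866-107761272, minus strand). It shares 169 exonic bases with PRDM4-AS1 on the other strand, which was at 0.381 to 2.42 CPM. With the use of strand not given, reads over these bases cannot be told apart. PRDM11, a repressor with tumour suppressor activity in B-cell lymphoma, had 5.24 to 6.85 CPM in knockout (chr11:45095806-45235110, plus strand). In wild type it had 3.30 CPM in WT13 and 6.56 to 7.23 CPM in the other 3, with a log2 difference of −0.04 (SE 0.27). PRDM11 was the 1 member with a smaller spread in knockout than in wild type, 0.16 against 0.52 as SD of log2 CPM. PRDM15, a regulator of pluripotent and early embryonic cells, had 10.2 to 19.7 CPM in knockout and 12.2 to 16.2 CPM in wild type (log2 difference 0.01, SE 0.23; chr21:41798225-41879482, minus strand). None of the nearest tested genes on either side of PRDM2, PRDM4, PRDM10, PRDM11 and PRDM15 passed the test, from −0.57 for C2CD2 (SE 0.27, edgeR adjusted p = 0.341) to 0.78 for RIPK4 (SE 0.64, edgeR adjusted p = 0.598), both beside PRDM15. APLP2 beside PRDM10, SLC35C1 beside PRDM11 and C2CD2 had groups that did not overlap, each lower in knockout, while LRRC38, EFHD2, PWP1, FICD, NFRKB and CD82 overlapped. Of all tested genes, 10.0% had groups that did not overlap, in either direction.

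**Figure D3:**
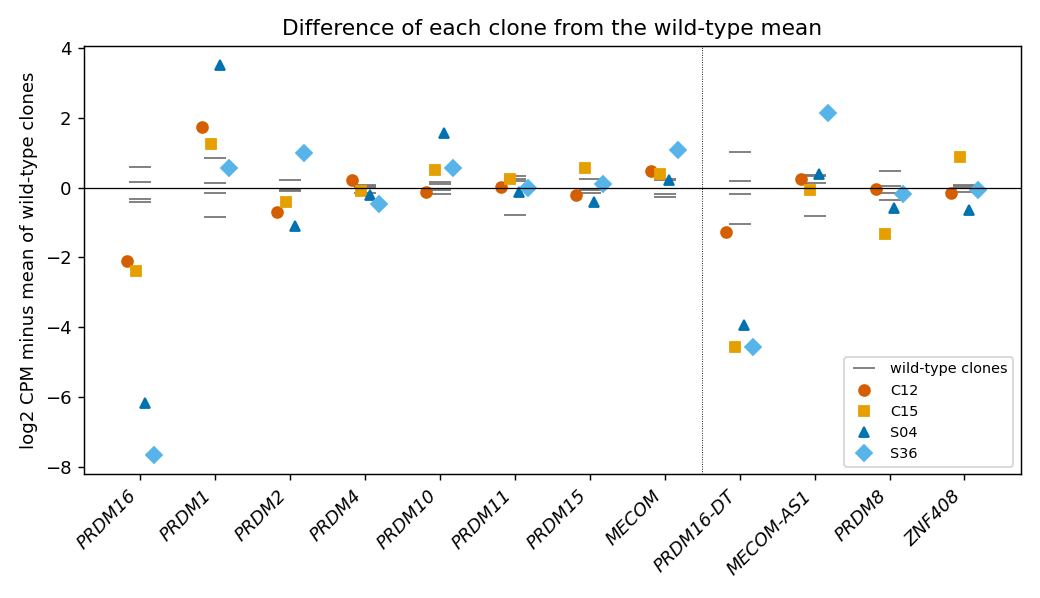
Log2 CPM of each clone minus the mean of the 4 wild-type clones, for the 8 genes and, right of the dotted line, PRDM16-DT, MECOM-AS1, PRDM8 and ZNF408. Coloured symbols are knockout clones and grey dashes are wild-type clones. PRDM16 lies at −7.65 in S36, PRDM1 reaches 3.50 in S04, and PRDM2 lies at −1.09 in S04 and 0.99 in S36.

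Over all genes, 45 of the 14243 tested had an adjusted p under 0.05 in edgeR's quasi-likelihood test of knockout against wild type, which is 0.316%, 20 of them higher and 25 lower in knockout. None of the 8 PRDM genes was among them in edgeR. At an unadjusted p under 0.05 there were 4 of the 8, beside 2202 of all tested genes, or 15.5%. DESeq2 called 1 of the 8, PRDM1, among 513 genes. A different 1, PRDM16, was called by limma-voom among 94 and by edgeR without C12 among 456. Without the filter edgeR called PRDM16 and PRDM1 among 581 genes. With only the S-named knockout clones it called PRDM16, PRDM1 and PRDM10 among 2211. The other alternatives called none of the 8. The groups of 1431 tested genes, or 10.0%, did not overlap, and 1 of the 8, PRDM16, was among these. The median log2 difference of the 8 was −0.02, beside 0.02 over all tested genes. Between C-named and S-named clones 51 of 14243 genes passed, which is 0.358%, with PRDM16 among them and none of the other 7. It was no longer among them in limma-voom or after leaving out any 1 wild-type clone. The members were chosen with these values known, so these counts are a description and nothing is read from them.

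The level of RNA per kilobase of transcript allows the genes to be set beside each other. On that scale in wild type PRDM8, a family gene outside the 8, led with 34.7 CPM per kb, followed by PRDM4 with 9.84, MECOM with 8.03, PRDM2 with 5.92, ZNF408 with 4.57 and PRDM16 with 4.57. PRDM15 had 2.78, PRDM10 had 0.583, PRDM11 had 0.556 and PRDM1 had 0.0598 CPM per kb. The ranges of PRDM4 and MECOM, MECOM and PRDM2, ZNF408 and PRDM16, and PRDM10 and PRDM11 overlapped, and the other neighbours in this order did not. In knockout PRDM16 came next to last, with 0.479 CPM per kb, above PRDM1 with 0.326, and MECOM had 11.9 CPM per kb beside 8.99 for PRDM4. Of neighbours in the knockout order, PRDM15 and PRDM10 were the pair whose ranges did not overlap. These lengths are those of principal transcripts, and the order turns in part with the union of all exons. On those lengths MECOM, with 3.47 CPM per kb in wild type, came below PRDM2 with 4.31, PRDM16 with 4.07 and ZNF408 with 3.63. In knockout MECOM, with 5.14, then came below PRDM4 with 7.92 CPM per kb.

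**Figure D4:**
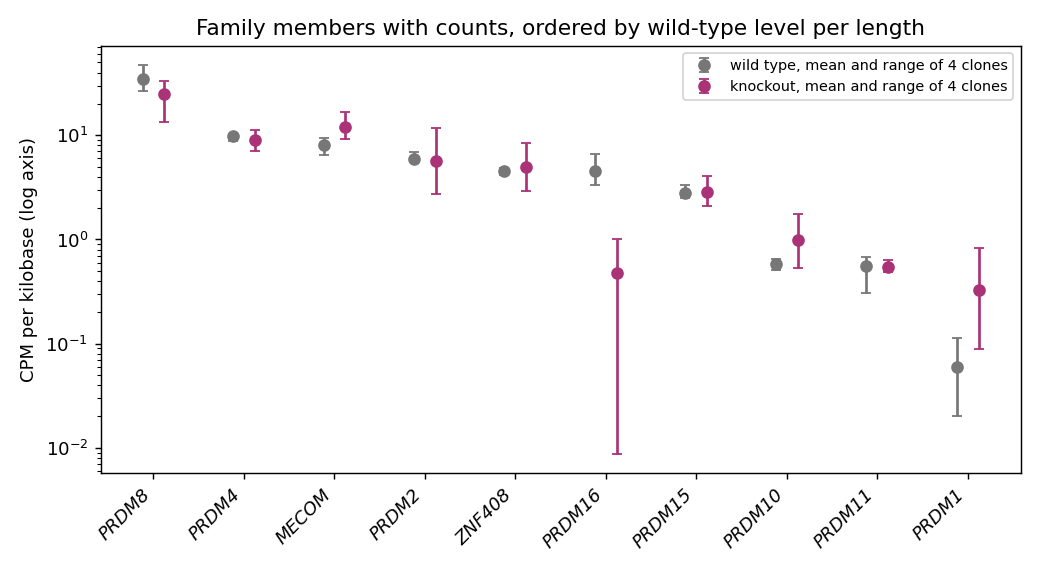
CPM per kilobase of principal transcript (log axis) of the 10 family genes with counts, ordered by the wild-type mean, with points at the mean and bars from the lowest to the highest of 4 clones. PRDM16 moves from 4.57 in wild type to 0.479 in knockout, below PRDM10 and PRDM11.

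Of the other family genes, PRDM6, PRDM7, PRDM9, PRDM12, PRDM13 and PRDM14 had 0 counts in all 8 clones. PRDM8, a repressor best known in the retina and nervous system, averaged 129 ± 32.7 CPM in wild type and 92.2 ± 32.2 CPM in knockout (SD, n = 4 each). Its log2 difference of −0.47 (SE 0.26) did not pass (edgeR adjusted p = 0.423). ZNF408, a distant zinc finger relative, differed by 0.04 (SE 0.28, edgeR adjusted p = 0.968). PRDM8-AS1 differed by 0.15 (SE 0.53, edgeR adjusted p = 0.924), and PRDM10-DT and PRDM6-AS1, with at most 8 and 1 counts in any clone, were not tested.

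The genes most like PRDM16 over the 8 clones were CBFA2T3, TBC1D16, DDX25, KANK4 and NPHS1. Likeness was the root mean square difference of mean-centred log2 CPM over 9809 genes, whose median was 2.88. With a prior count of 0.5 in place of 2, 3 of these 5 were again among the nearest, without KANK4 and NPHS1. CBFA2T3, a corepressor of the ETO family, was nearest at 1.00. It had 7.47, 14.9, 2.47 and 0.305 CPM in C12, C15, S04 and S36, and 38.7, 59.5, 16.7 and 43.4 CPM in WT10, WT13, WT28 and WT30. It was lowest in the S-named clones, which the choice by likeness to PRDM16 favours, so this is no separate result. TBC1D16 followed at 1.28, and DDX25, KANK4 and NPHS1 at 1.46, 1.47 and 1.47. KANK4 was the most abundant of these, with 98.7 CPM in C15 and 5.49 CPM in S36.

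For PRDM1 the nearest were HNF4G, CEL, PLK2, MROCKI and SLC25A30, at 0.58 to 0.66 beside a median of 1.30. Of these, HNF4G and CEL were again among the nearest 5 with a prior count of 0.5. PLK2, a stress-induced kinase, had 6.97, 7.66, 15.2 and 5.79 CPM in C12, C15, S04 and S36, and 2.66 to 3.45 CPM in wild type. All 5 were highest in S04. CEL, a lipase, had 6.44 CPM there and 0.709 to 1.17 CPM in wild type. These genes were picked for their likeness, so their own differences are no separate result.

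Among 23 corepressors and methyltransferases that PRDM proteins work with, 21 were tested, 11 lay above and 10 below 0, and none passed the test (median log2 difference 0.01 beside 0.02 over all tested genes). At an unadjusted p under 0.05 there were 3 of the 21, beside 15.5% of all tested genes. EHMT1, a methyltransferase of H3K9, had 92.3 ± 25.9 CPM in knockout and 52.9 ± 2.41 CPM in wild type (SD, n = 4 each). Its groups did not overlap, and the log2 difference was 0.79 (SE 0.19, edgeR adjusted p = 0.116). TLE1, a Groucho corepressor, had 16.9, 16.9, 32.7 and 18.7 CPM in C12, C15, S04 and S36 beside 11 ± 1.10 CPM in wild type (SD, n = 4). Its log2 difference was 0.97 (SE 0.24, edgeR adjusted p = 0.118). HDAC1 and HDAC2 were close to level, with 0.00 and −0.06. PRMT5 was not tested, having 64 counts over all 8 clones.

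Of 13 regulators of PRDM1, 10 were tested, 6 above and 4 below 0, with none past the threshold (1 of 10 at an unadjusted p under 0.05, beside the same 15.5%; median 0.06). STAT3, an inducer of PRDM1, differed by 0.44 (SE 0.16, edgeR adjusted p = 0.233) and TCF3, an E protein, by −0.18 (SE 0.14, edgeR adjusted p = 0.575). IRF4, another inducer, had 10 counts in all. Of 14 PRDM1 targets, 6 were tested, 3 above and 3 below 0, and none passed (1 of 6 at an unadjusted p under 0.05, beside the same 15.5%; median 0.16). CCR7, a homing chemokine receptor, differed by −0.57 (SE 0.53, edgeR adjusted p = 0.651). TCF7, a T-cell factor, was abundant in both groups, at 935 and 1010 CPM. PAX5 and IL2 were not tested, with 57 and 21 counts.

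Of 20 stem cell genes linked to MECOM and PRDM16, 10 were tested, with 4 above and 6 below 0 and none past the threshold (2 of 10 at an unadjusted p under 0.05, beside 15.5% of all tested genes; median −0.01). ANGPT1, a stem cell niche ligand, had 2.31, 3.63, 6.02 and 3.20 CPM in C12, C15, S04 and S36, against 0.992 ± 0.447 CPM in wild type (SD, n = 4). Its groups did not overlap, with a log2 difference of 1.93 (SE 0.42, edgeR adjusted p = 0.0962). HLF, a stem cell transcription factor, was lower in all 4 knockout clones, at 0.424 to 0.991 CPM against 1.91 ± 0.146 CPM in wild type (SD, n = 4; log2 difference −1.44, SE 0.36, edgeR adjusted p = 0.123). GATA2, a gene bound by MECOM in other cells, differed by 0.42 (SE 0.22, edgeR adjusted p = 0.376). Between C-named and S-named clones all 10 lay below 0, with a median of −0.63 beside −0.05 over all tested genes, and none passed (2 of 10 at an unadjusted p under 0.05, beside 17.1% of all tested genes).

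Of 19 thermogenic genes that PRDM16 controls in fat, 9 were tested, 5 above and 4 below 0, with none past the threshold (2 of 9 at an unadjusted p under 0.05, beside 15.5% of all tested genes; median 0.01). UCP1, the uncoupling protein, had 6 counts in all, and CIDEA and ADRB3 had 0. CEBPB, a partner of PRDM16, differed by −0.52 (SE 0.20, edgeR adjusted p = 0.248). EBF2 differed by −1.69 (SE 0.63, edgeR adjusted p = 0.244), with groups that did not overlap at levels below 1 CPM.

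PRDM16 and MECOM can bind SMAD proteins, the mediators of TGF-beta signalling, and repress their activity. Of 27 genes of this pathway, 21 were tested. There were 15 above and 6 below 0, and none passed (5 of 21 at an unadjusted p under 0.05, beside 15.5% of all tested genes; median 0.26 beside 0.02). The ligand gene TGFB1 had 10.8, 17.7, 22.3 and 38.0 CPM in C12, C15, S04 and S36, above its 8.25 ± 2.06 CPM in wild type (SD, n = 4). Its groups did not overlap, and the log2 difference was 1.44 (SE 0.35, edgeR adjusted p = 0.117). The receptor gene BMPR1A had 2 to 5.72 CPM in knockout and 1.11 ± 0.461 CPM in wild type (SD, n = 4), with a log2 difference of 1.76 (SE 0.45, edgeR adjusted p = 0.128). The mediators SMAD2, SMAD3 and SMAD4 differed by 0.26, 0.27 and 0.04.

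**Figure D5:**
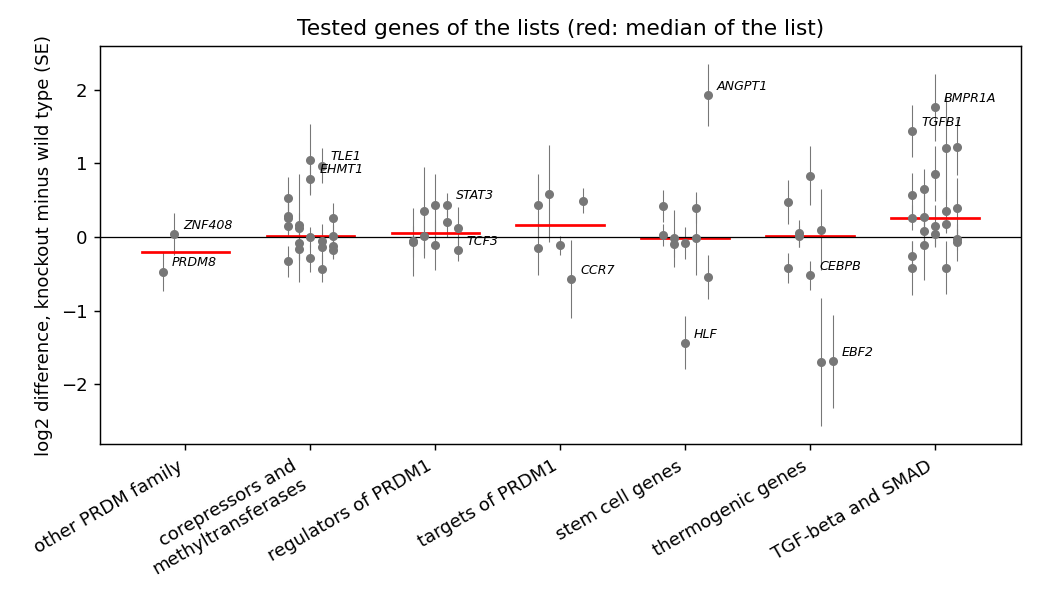
Log2 difference of knockout from wild type (points, with the standard error as bars) for every tested gene of the 7 lists, with the median of each list in red. ANGPT1 at 1.93, BMPR1A at 1.76 and TGFB1 at 1.44 lie above the rest of their lists, and none of the plotted genes passed the test over all genes.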

How the data were processed

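RNA from 8 RPMI-8402 clones, 4 labelled wild type and 4 labelled NKX2-1 knockout, was sequenced, and the authors deposited raw read counts per gene. TopHat2, Subread, SAMtools and FastQC and the build hg38 are named per the submitters' processing notes. Their settings, the annotation and the use of strand were not given in the sources used here. Of 61228 symbols, 56698 matched GENCODE 29, which is on the same assembly and gave positions and lengths.

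Counts were filtered with filterByExpr, scaled by TMM and fitted with edgeR 4.0.16 (glmQLFit and glmQLFTest, R 4.3.3) over all 8 clones, adjusting p-values by Benjamini-Hochberg over the 14243 genes tested, at a threshold of 0.05. The same filter, by genotype, served the comparison of C-named with S-named clones, for which wild-type clones share the dispersion. Log2 CPM per clone used a prior count of 2. RLE scaling, no filter, DESeq2 1.42.0, limma-voom (limma 3.58.1), the C-named or S-named knockout clones alone and leaving out each clone were alternatives. A filter by 3 groups and the medians within 5 Mb were added after seeing the data. Scripts were tested on simulated data.

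The members and lists were chosen with earlier results of these data known. Also named were all PRDM and MECOM symbols, tested protein-coding genes within 1 Mb of PRDM16 or PRDM1, the nearest on each side of the others, the 2 genes of each list with the smallest p, and the 5 genes nearest in pattern with a mean of at least 1 CPM in the higher group. A few further genes were named after their values were seen, and a few genes that the rule names are not reported here. Ratios of summed counts have 95% exact binomial intervals and single values exact Poisson intervals. The p-values reflect how far these 8 clones vary.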

Additional observations from a re-analysis of the deposited data

Results flagged for a closer look

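Among 52 groups of 4 clones examined for 26 genes, 4 had 1 clone set apart, by a gap to its nearest neighbour that took up most of the group's range (Dixon's test). Chance gives about 1 in 20, or 2.6 such groups. PRDM2 in WT28 had a log2 CPM of 5.78 (55 CPM), above the other wild-type clones. PRDM11 in WT13 had a log2 CPM of 1.77 (3.30 CPM), below the other wild-type clones. PRDM4-AS1 in WT28 had a log2 CPM of 0.89 (1.74 CPM), the highest of its group. TLE1 in S04 had a log2 CPM of 5.04 (32.7 CPM), the highest of the knockout clones. PRDM16 was 4.93 higher on the log2 scale in the C-named than in the S-named clones, in the fit described above, although the gene was chosen with this value known.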

How the results depend on the processing

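The number of genes past the threshold depended strongly on the processing. For knockout against wild type it was 45, and 581 with no filter, 513 in DESeq2, 94 in limma-voom, 6 with the C-named and 2211 with the S-named knockout clones alone, and 3 to 456 when 1 clone was left out (456 without C12 and 3 without WT10, WT13 or WT30). For C-named against S-named clones it was 51, and 14 with RLE scaling, 762 with no filter, 626 in DESeq2, 89 in limma-voom, 14 with the filter by 3 groups, and 0 to 749 when 1 clone was left out (749 without C12 and 0 without any 1 wild-type clone). Of the listed genes, 0 passed, and 5 with no filter, 6 in DESeq2, 13 with the S-named clones alone, and 0 to 5 when 1 clone was left out. Over all genes, 581 passed with no filter, 513 in DESeq2 and 2211 with the S-named clones alone. The lists were not set against the share of all genes in these settings, so nothing about the lists is read from these counts. The cause of the changes in number was not tested.

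PRDM16, PRDM1, PRDM10 and MECOM kept their direction of knockout from wild type in all 14 alternatives, and PRDM16 kept its direction between C-named and S-named clones in all 13. The values of PRDM16 do not overlap in either comparison, so leaving out clones could not turn its direction. All members were chosen with these values known, so the kept directions are a description. When 1 clone was left out, the difference of C-named from S-named clones ran from −2.42 (without C12) to 6.87 for PRDM16-DT, and from −0.98 to 0.30 for PRDM8 (0.30 without C15, 0.07 without S36, −0.16 with all clones). Low depth in C15 limits PRDM1 and PRDM16-DT there. No paired analysis was possible because nothing in the labels ties a knockout clone to a wild-type clone.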
